A study of Mus musculus with 6 samples.

Results

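Alpha cells, the glucagon-producing endocrine cells of the pancreatic islet, were taken from single-cell RNA-Seq of dispersed islets as barcodes in which glucagon transcripts (Gcg) made up at least 8% of all UMIs (unique molecular identifiers, 1 per captured mRNA molecule). A member also had over 1000 genes detected, at most 10% of UMIs from mitochondrial genes, and less than 10% insulin (Ins1 plus Ins2), 2% somatostatin (Sst) and 8% pancreatic polypeptide (Ppy). These limits chose 739 of 43445 deposited barcodes, or 1.70%. The cells came from 3 WT and 3 β14-3-3ζ–KO libraries of islets from C57/BL6 mice at 12 to 14 weeks. In the KO mice, Ins1-CreThor, which places Cre under the control of the Ins1 gene, had been combined with loxP sites around exon 4 of Ywhaz, the gene of 14-3-3ζ. Littermate controls also carried Cre, according to the study's methods, so both genotypes shared the Ins1-CreThor allele. Islets rested overnight before dispersal, and dead cells were removed on columns. The libraries stand for 3 mice per genotype, as many as there were libraries, and every p-value below measures the spread between libraries.

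Glucagon counters insulin: it drives the liver to release glucose when blood glucose is low. Alpha cells make it from proglucagon, which the protease encoded by Pcsk2 cuts, and they release it in response to falling glucose, amino acids, adrenaline and vasopressin. Somatostatin from neighbouring δ cells restrains that release. The homeobox factors Irx1 and Irx2 are known from α cells. In this study Cre was directed at β cells, which leaves the α cells of the same islets as a neighbouring type in which Ywhaz was not the target.

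The WT libraries held 52, 116 and 91 α cells, and the KO libraries held 98, 232 and 150. Their UMIs summed to between 1365591 and 3168556 per library, so that 3 UMIs, used here as the floor, stood for 0.947 to 2.20 CPM (counts scaled to 1e+06 per library). Single α cells ranged from 2877 to 69451 UMIs, and median mitochondrial shares lay between 5.15 and 5.47% in all 6 libraries. No barcode sequence of a member occurred in more than 1 library, whereas 236 sequences did so among all barcodes. Both replicate 2 libraries stood apart in other cells, with β cell medians of 4935 and 6540 UMIs against 28343 to 44141 in the rest, and with the most transcripts of B cells and macrophages.

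The proglucagon gene lies on the minus strand at chr2:62474530-62483650 (GRCm38). The 250 bases upstream of its start are printed because Gcg defines these cells and held a large share of their UMIs. They span chr2:62483654-62483903, were taken from RefSeq (GRCm38.p6) and are given 5′ to 3′ on the gene's strand. Capitals mark the letters TATAAA and TAAT on either strand.
Gcg: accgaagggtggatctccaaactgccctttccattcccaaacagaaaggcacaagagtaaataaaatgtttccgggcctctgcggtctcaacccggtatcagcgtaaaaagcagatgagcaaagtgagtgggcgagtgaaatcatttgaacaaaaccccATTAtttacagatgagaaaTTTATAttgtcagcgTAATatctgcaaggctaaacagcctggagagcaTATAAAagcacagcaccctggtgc
TATAAA, the TATA box letters, was present 24 bases before the start on the printed strand and, as its reverse complement, 72 bases before it. TAAT, the core that homeobox factors recognise, was present 57 bases before the start and on the other strand 91 bases before it. The E-box letters CAGATG occurred 2 times on the printed strand, and the Maf site letters TGCTGA did not occur on either strand. No match overlapped another. Among 32851 mouse promoters of the same length, 12.4% held TATAAA, 54.9% TAAT, 14.4% CAGATG and 16.1% TGCTGA on either strand. Of 21 α cell genes from the marker and factor lists and the ranking below, the promoters of 15 were searched, and 3, 10, 3 and 1 of these held the 4 motifs. Ttr was not among those searched. Such matches describe letters and do not show binding.

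Gcg had a wide range from cell to cell but a narrow range between libraries. The median Gcg share per library was 21.4, 19.0 and 20.6% of UMIs in WT and 22.2, 19.1 and 21.2% in KO, and the highest cell reached 51.7%. Within a library the 10th percentile lay between 11.4 and 14.4% and the 90th between 26.6 and 31.6%. Few barcodes lay near the limit. With all other limits met, 62 barcodes had 2 to under 8% Gcg and 4753 had under 2%. The barcode just outside the limit had 7.95% and the one just inside 8.004%. A further 918 barcodes with at least 8% Gcg were left out by another limit, of which 482 failed for mitochondrial UMIs alone, 109 for insulin alone, 68 for Sst alone and 36 for Ppy alone.

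**Figure D1:**
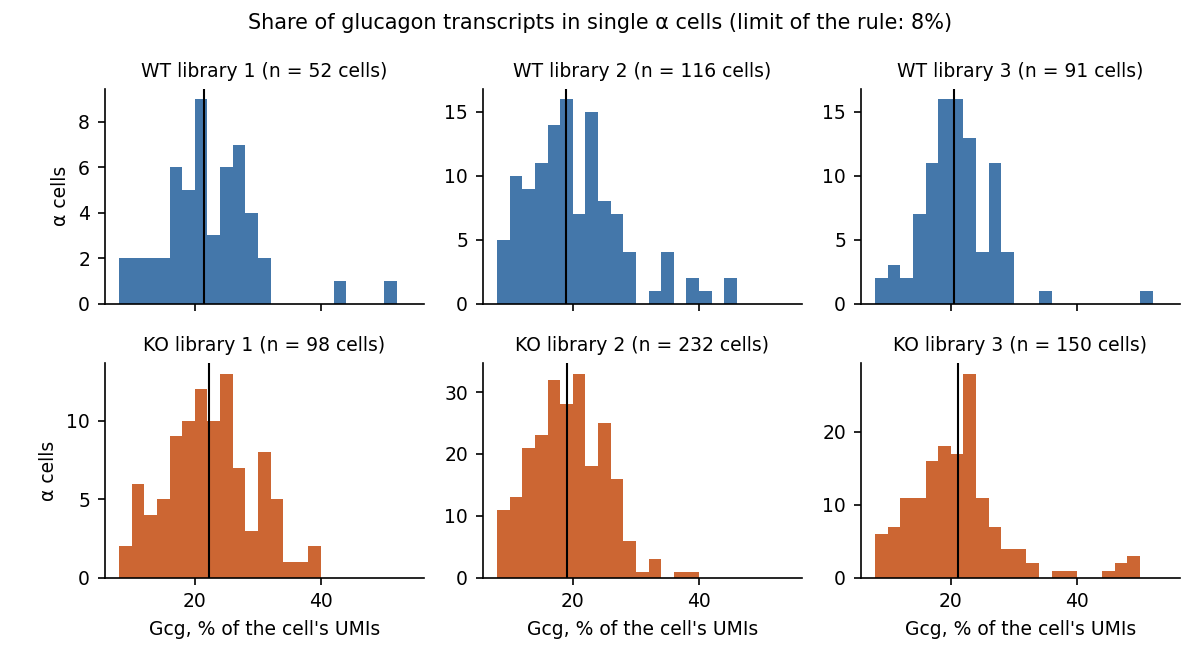
Share of UMIs from Gcg in single α cells of each library, as a histogram in bins of 2% with the number of cells on the vertical axis; the black line is the library's median. All 6 medians lie between 19.0 and 22.2%, and no library shows a pile of cells at the 8% limit.

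Cells with more Gcg tended to have more Ttr, which encodes the thyroxine carrier transthyretin. Across the cells of 1 library, Pearson's r of the Gcg share with the Ttr level was between 0.388 and 0.484. The r with Pcsk2 was 0.161 to 0.566. With Actb, the β-actin gene, it was negative in every library, at -0.60 to -0.07, and with the log of the UMI count it ranged from -0.213 to 0.182. These correlations are descriptions, because the cells of a library share its depth and free RNA. The gene levels in them were log2 values over the UMIs outside Gcg, Ins1, Ins2, Sst and Ppy, so Gcg was not in their total.

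Levels below are CPM on a non-hormone scale, which takes the UMIs outside Gcg, Ins1, Ins2, Sst and Ppy as the total, given as mean ± SD of 6 libraries, because hormone transcripts take different shares of α, β, δ and Ppy cells. UMIs are counted at the 3′ end, so transcript length does not enter. The types compared were 9333 β cells, 705 δ cells and 285 Ppy cells, chosen by their hormone shares, and differences between types are descriptions without a test.

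The members were checked against the 6 genes listed as α cell markers. The 5 besides Gcg had higher means in α cells than in β cells, by 4.14-fold or more. Gcg was at 276200 ± 21631 CPM in α cells, 128-fold above β cells, but it chose the members and is no finding. Ttr was at 15236 ± 3377 CPM, 27.7-fold above β cells. Its values were 19588, 12399 and 14005 in WT and 18456, 11033 and 15932 in KO, with no separation by genotype, and the highest library of any other endocrine type had 1716 CPM, a Ppy library. Irx1 (chr13:71957921-71963723) was at 81.2, 91.6 and 85.0 CPM in WT and 126, 84.3 and 82.1 in KO, 104-fold above β cells. Irx2 (chr13:72628820-72634198) was at 153 ± 17.9 CPM and 40.5-fold above β cells. Slc7a2 (chr8:40862396-40922308), a transporter of cationic amino acids such as arginine, was at 673 ± 48.5 CPM and 4.14-fold above β cells. Gc (chr5:89417522-89457898), which encodes the vitamin D binding protein, was at 279 ± 53.6 CPM and 4.19-fold above β cells. Gc was not particular to α cells among the other types, with means of 231 CPM in δ and 273 CPM in Ppy cells.

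**Figure D2:**
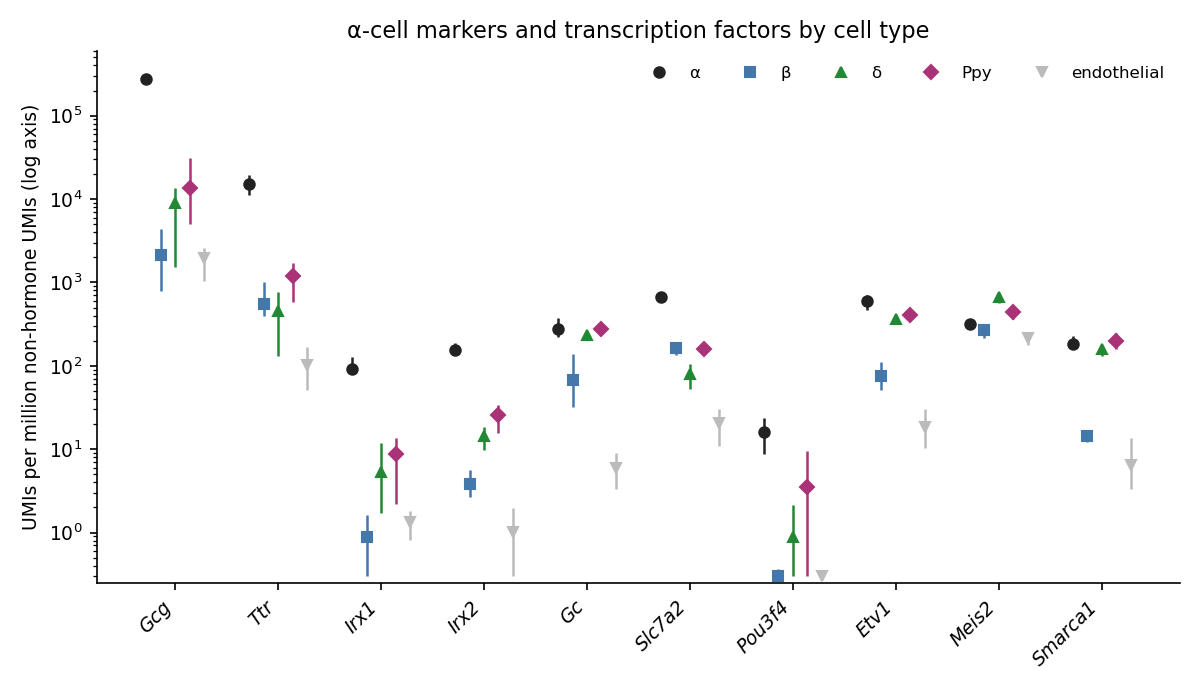
Levels of α cell markers and of the transcription factors reported here in α, β, δ, Ppy and endothelial cells, in CPM on the non-hormone scale and on a log axis; points are the means of 6 libraries, bars run from the lowest to the highest library, and values under 0.3 are drawn at 0.3. Irx1 and Irx2 are higher in α cells than in each other type shown, whereas Gc is about as high in δ and Ppy cells.

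Among the 8 transcription factors listed for α cells (Irx1 and Irx2 are 2 of them), 7 were at least 2-fold above β cells, against 5.48% of the 9453 genes found in over 15% of α or β cells. Pou3f4, a POU factor also known from the brain, was at 16.1 ± 6.02 CPM, 86.1-fold above β cells. The ETS factor Etv1 was at 593 ± 77.9 CPM in α, 360 in δ and 408 in Ppy cells, with a fold of 7.89 over β cells. The chromatin remodeller Smarca1 was at 181 ± 24.5 CPM, 12.7-fold above β cells and close to the means of 157 in δ and 200 CPM in Ppy cells. The homeobox gene Meis2 was the exception, at 319 ± 25.6 CPM with a fold of 1.19, and it was higher in δ cells, at 669 CPM.

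Ranked by the lowest α library over the highest β, δ or Ppy library, 15 genes led all others, and their ratios ran from 8.04 for Gcg to 3.11 for Klhl13. Ttr, Irx1, Irx2 and Slc7a2 were among them, and so were Mfap2, Hhatl, Wnk3, Rnf212b, Gfra3, Egflam, Hapln1, Tmsb15b2 and Klhl13. The level of Wnk3, a kinase that controls ion transporters, was 202 to 312 CPM in α libraries and at most 46.4 in a β, δ or Ppy library. Tmsb15b2, of the actin-binding β-thymosin family, was at 1634 to 1937 CPM, against 510 at most in those 3 types; it has a near copy, Tmsb15b1, so that its reads may be split between the copies. Gfra3, a co-receptor for the neurotrophic factor artemin, was at 22.5 to 45.5 CPM, against 6.38 at most in those types. Mfap2, a protein of extracellular microfibrils, was at 35.2 to 52.7 CPM, against 6.83 at most there. Hapln1, which links hyaluronan to proteoglycans, was at 94.8 to 128 CPM, against 27.3 at most in β, δ and Ppy libraries, but endothelial cells had 32.0 to 66.8 CPM.

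The factors shared by all islet endocrine cells differed little from β cells. Of 10, none was at least 2-fold above and 1 at least 2-fold below, where the background was 7.28% of genes. The exception was Insm1, a zinc finger factor, at 98.6 ± 12.3 CPM in α and 312 ± 35.0 CPM in β cells. Isl1 was at 301 ± 17.8 CPM, 1.59-fold above β cells, and every α library lay above every β library. Pax6 was at 353 ± 26.4 and Neurod1 at 408 ± 42.6 CPM, and both had α values that overlapped those of β cells.

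In the granule and prohormone processing group of 12 genes, 4 had every α library above every β library and 5 the reverse, against 14.6 and 16.9% of all genes. Pcsk2, which cuts proglucagon, was at 6036 ± 388 CPM in α and 3936 ± 374 CPM in β cells, a fold of 1.53. Pcsk1n, whose product proSAAS inhibits the PCSK1 protease, was at 3562 ± 213 CPM, a fold of 2.17. Scg5, which encodes the 7B2 chaperone of PCSK2, was at 1304 ± 119 CPM and 1.60-fold above β cells. The protease PCSK1 stood at the other end: its gene was at 22.3 ± 6.94 CPM in α and 340 ± 31.4 CPM in β cells. Of the granin genes, Scg2 was at 0.270 and Chgb at 0.590 times its β level in α cells, while Chga, at 5004 ± 342 CPM, overlapped the β libraries.

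Of 11 measured genes of nutrient uptake and glucose metabolism, 4 were at least 2-fold above β cells (Slc7a2, Slc38a5, Slc7a8 and Hk1) and 3 at least 2-fold below (Slc2a2, G6pc2 and the amino acid transporter gene Slc7a5), where all genes had 5.48% above and 7.28% below. Slc38a5, a glutamine transporter, was at 74.3, 96.3 and 106 CPM in WT α cells and 104, 59.1 and 108 CPM in KO α cells, 64.1-fold above β cells. The lowest α library thus lay far above the β mean of 1.42 CPM. Slc7a8, a transporter of large neutral amino acids, was at 270 ± 22.1 CPM and 3.09-fold above. Its partner chain Slc3a2 was at 271 ± 11.6 CPM with a fold of 1.13. The hexokinase gene Hk1 was at 21.3 ± 5.32 CPM in α and 1.70 ± 1.72 CPM in β cells. The glucose transporter gene Slc2a2 was at 14.8 ± 5.43 CPM against 271 ± 56.4 CPM in β cells, and the glucose-6-phosphatase gene G6pc2 at 50.2 ± 8.81 against 710 ± 99.7 CPM.

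Of 13 ion channel genes, 1 was at least 2-fold above and 1 at least 2-fold below β cells, near the 5.48 and 7.28% of all genes. The sodium channel gene Scn3a was at 84.3 ± 7.71 CPM, 3.66-fold above β cells. The TRP channel gene Trpm5 was at 6.41 ± 2.77 CPM in α and 115 ± 7.85 CPM in β cells. Both subunits of the ATP-sensitive potassium channel overlapped between the types, with Abcc8 at 451 ± 30.6 CPM and Kcnj11 at 79.6 ± 11.6 CPM in α cells. The potassium channel gene Kcnk16 was at 149 ± 11.3 CPM and 1.88-fold above β cells, close to its means of 157 in δ and 159 CPM in Ppy cells.

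Receptor genes were split between the types. Of 16 measured, 5 were at least 2-fold above and 8 at least 2-fold below β cells, with a median fold of 0.501, where the median of all genes was 0.992. The 3 with the largest folds encode receptors for known α cell signals. The β1 adrenergic receptor gene Adrb1 was at 25.4, 16.0 and 21.2 CPM in WT and 29.9, 25.6 and 29.9 CPM in KO α cells, 137-fold above β cells. The vasopressin receptor gene Avpr1b was at 74.7 ± 19.7 CPM in α, 22.5 in Ppy and 0.608 CPM in β cells. The somatostatin receptor gene Sstr2 was at 13.5 ± 3.43 CPM in α and 0.113 CPM in β cells. Sstr3 had the opposite order without overlap, at 52.4 ± 8.12 CPM in α and 84.4 ± 11.7 CPM in β cells. Gpr119, a receptor for fatty acid amides, was at 47.2 ± 9.86 CPM and 5.52-fold above, and the ephrin receptor gene Ephb2 was at 13.5 ± 2.52 CPM and 6.37-fold above. On the β side, the α2A adrenergic receptor gene Adra2a had 0.0677 times and the free fatty acid receptor gene Ffar1 had 0.192 times its β level in α cells. The glucagon receptor gene Gcgr had a UMI in 29 of 739 α cells, or 3.92% (exact 95% interval 2.64 to 5.59%, counting error only).

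In the exocytosis group of 14 genes, 1 was at least 2-fold above and 1 at least 2-fold below β cells, again near the shares of all genes (5.48 and 7.28%). Every α library lay below every β library for 5 of the 14 and above for 1, against 16.9 and 14.6% of all genes. The syntaxin gene Stx1a was at 15.3 ± 2.48 CPM, 2.33-fold above. The synaptotagmin gene Syt4 was at 110 ± 11.3 CPM in α and 427 ± 58.1 CPM in β cells. The members with the most UMIs in α cells were Cplx2 at 393 ± 25, Scgn at 304 ± 25 and Syt13 at 268 ± 14.1 CPM, of which Syt13 was at 0.503 times its β level.

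Genes of endoplasmic reticulum folding and stress were lower in α cells as a group. All 19 measured members were below their β level on the non-hormone scale, 8 at least 2-fold, with a median of 0.597, where 7.28% of all genes were at least 2-fold below and the median gene was at 0.992. On a scale of all UMIs 16 of the 19 were below. Hspa5, the main chaperone of the endoplasmic reticulum, was at 825 ± 91.1 CPM in α and 1772 ± 618 CPM in β cells. Trib3, a target of the stress response, was at 9.42 ± 2.22 CPM in α and 80.4 ± 24.8 CPM in β cells. Pdia3 was nearest to β cells at 0.792 times, and Hsp90b1, at 841 ± 55.4 CPM, was at 0.734 times. Means in Ppy cells were close to those of α cells for Hspa5, at 831 CPM, and Hsp90b1, at 836 CPM.

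Immediate early genes, which cells switch on within minutes of a stimulus, went the other way. All 10 measured members were above β cells on either scale, with 5 at least 2-fold above on the non-hormone scale, where 5.48% of all genes were. Their median was 2.14 on that scale and 2.82 on the scale of all UMIs, against 0.992 and 1.31 for the median gene. Jun was at 388 ± 63.3 CPM in α and 109 ± 34.3 CPM in β cells. Egr1 was at 465 ± 60.1 CPM and 3.04-fold above, and Klf4 was at 62.0 ± 27.4 CPM and 6.56-fold above. Levels were higher still in δ and Ppy cells, at 881 and 988 CPM for Jun and at 856 and 819 CPM for Egr1. Islet dispersal and overnight rest preceded every library, and their part in these levels was not tested.

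The medians of the remaining groups lay nearer to the median gene than those of endoplasmic reticulum and immediate early genes. None of 76 respiratory chain and ATP synthase genes encoded in the nucleus reached a 2-fold difference, and their median was 1.1, with Atp5e the highest at 1.77-fold and Uqcrq the lowest at 0.524. The 13 mitochondrially encoded genes had a median of 0.815, which turned to 1.07 on the scale of all UMIs. On the non-hormone scale 5 of the 13 had every α library below every β library and 1 the reverse, against 16.9 and 14.6% of all genes. Of 32 splicing genes, 8 had every α library above every β library and none the reverse, against 14.6 and 16.9% of all genes, with a median of 1.17. The 10 genes of MHC class I presentation had a median of 1.01. Among them B2m, the common light chain, was at 57.7, 324 and 49.6 CPM in WT and 76.6, 230 and 102 CPM in KO α cells, highest in both replicate 2 libraries. The medians of the endocrine factor, granule, channel and exocytosis groups also moved from below to above 1 on the scale of all UMIs, on which the median gene rose by 0.39 on the log2 scale.

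**Figure D3:**
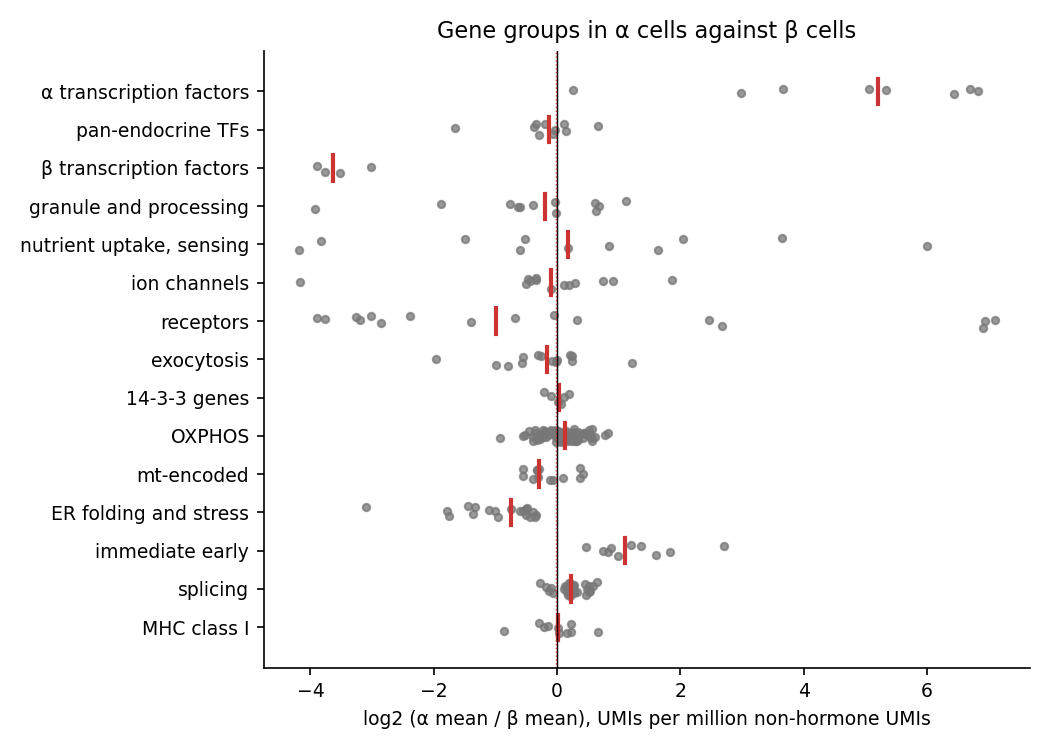
Fold of α cells over β cells for each listed group, as log2, from mean CPM on the non-hormone scale over 6 libraries; grey points are genes, red bars are group medians, and the dotted red line is the median of all 9453 genes. Endoplasmic reticulum genes lie below 0 and immediate early genes above 0, while the nuclear respiratory chain genes cluster near 0.

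Transcripts that define β cells were present in α cells at low levels, and for some of them the comparison with background depended on the scale. Endothelial barcodes, which should hold none, served as the background at a median of 11077.5 UMIs per barcode, against 16246 in α cells. On the scale of all UMIs, which keeps the hormone transcripts in the total, the β factor gene Mafa was at 8.38% of its β level in α and 8.20% in endothelial cells. On that scale Ucn3 was at 7.30 and 7.35%, Slc2a2 at 7.16 and 7.65%, Glp1r, the receptor gene for glucagon-like peptide 1, at 9.84 and 9.87%, Trpm5 at 7.49 and 7.35%, and Pcsk1 at 8.79 and 7.43%. On the non-hormone scale used for the other levels, the α mean was the higher one for each of these 6 genes, whereas Adra2a was at 7.16% in α and 7.38% in endothelial cells. Mafa was then at 6.39% in α and 4.91% in endothelial cells and Ucn3 at 5.55 and 4.36%, with α above endothelial cells in 6 of 6 libraries. Glp1r was at 7.46 and 5.91% (5 of 6 libraries), Pcsk1 at 6.63 and 4.49% (4 of 6), Trpm5 at 5.64 and 4.43% (4 of 6) and Slc2a2 at 5.39 and 4.58% (3 of 6). The lowest and highest libraries overlapped between α and endothelial cells for all 6 genes on both scales. Of the other β-rich transcripts, Gipr, Nkx6-1 and Scg2 were above background without overlap on both scales, but not all were. On the scale of all UMIs Pdx1 overlapped, at 7.65 to 16.1% of its β level in α and 6.78 to 16.6% in endothelial libraries. Igf1r had a mean of 14.7% in α and 18.1% in endothelial cells on that scale. Gipr, the receptor gene for the incretin GIP, was at 40.7 to 56.1% of its β level in the 6 α libraries and at 1.53 to 16.1% in endothelial cells on the scale of all UMIs, and at 27.7 to 43.9% and 0.914 to 10.0% on the non-hormone scale. Nkx6-1 was at 12.8 to 18.6% and 4.79 to 11.4% of its β level on the scale of all UMIs, and Scg2 at 29.2 to 44.1% and 4.76 to 18.1%. On the non-hormone scale Nkx6-1 was at 9.93 to 14.4% and 2.91 to 7.09%, and Scg2 at 22.1 to 34.1% and 2.45 to 11.3%. Pax4, a β lineage factor, had no UMI in 739 α cells, which allows a share of cells with a UMI of up to 0.406% (3 counts of the total), and in β cells it had a UMI in 1 of 9333, so it did not separate the types.

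Alpha cells differed among themselves in pancreatic polypeptide and its relative peptide YY, whose genes Ppy and Pyy lie side by side in the genome. Ppy made up at least 1% of UMIs in 168 of the 739 α cells, or 22.7%. The share per library was 51.9, 18.1 and 24.2% of α cells in WT and 29.6, 15.5 and 22.0% in KO, so that WT library 1 stood above the rest. Background was low, with 0.778% of endothelial barcodes at or above 1%, while 70.4% of δ barcodes, chosen with Ppy under 8%, were. The cut divides a range, with 55 cells at 0.5 to under 1% and 66 at 1 to under 2%, and the members' own limit ends it at 8%. Pyy made up at least 1% of UMIs in 384 α cells, or 52.0%, and 150 cells reached 1% of both.

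**Figure D4:**
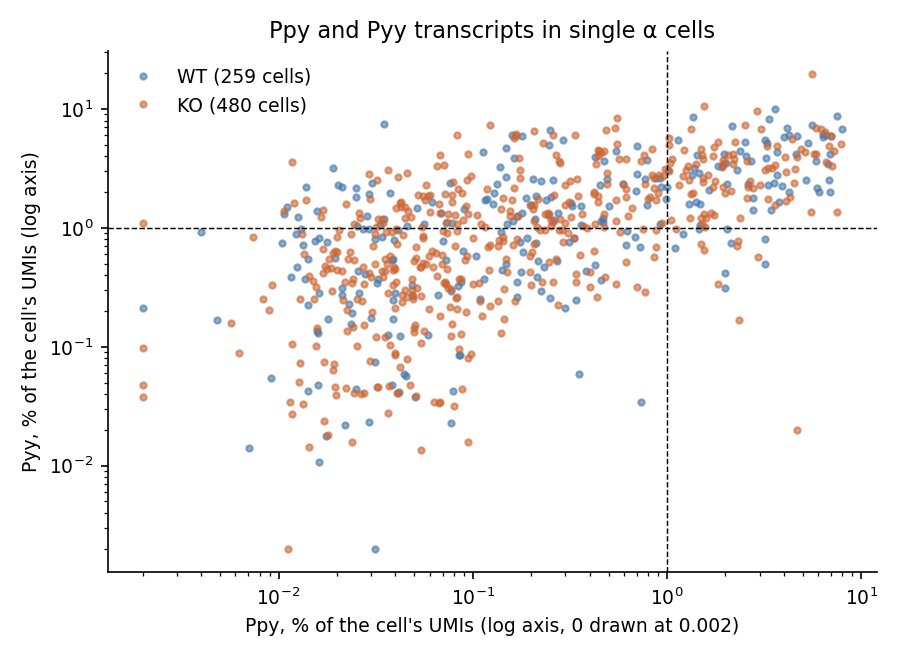
Share of UMIs from Pyy (vertical) against the share from Ppy (horizontal), both in percent on log axes, with 1 point per α cell, coloured by genotype; dashed lines mark 1%, and a share of 0 is drawn at 0.002. Most cells above 1% Ppy also lie above 1% Pyy, 150 of 168, whereas many cells have Pyy without Ppy.

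The α cells with at least 1% Ppy also differed in genes that did not choose them. Pyy was at 48767 ± 2824 CPM in them and 17494 ± 2914 CPM in the 571 others, higher in 6 of 6 libraries. Tspan8, a tetraspanin listed as a marker of Ppy cells, was at 118 ± 41 and 38.1 ± 17.4 CPM, higher in 6 of 6 libraries. Ttr, at 0.673 times, and Slc7a2, at 0.827 times, were lower in 6 of 6 libraries, whereas Irx2 was higher in 3 of 6. Slc38a5 was also lower in each library, at 0.747 times. Pcsk2 was higher in 6 of 6 libraries with a fold of 1.06. The median Gcg share was 19.9% with Ppy and 20.3% without, and median UMIs were 18460.5 and 15660. No test was run, since the cut was set on these cells, and the part of doublets of α with Ppy cells was not tested.

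Few α cells showed transcripts of cell division. Of 739 cells, 16 had a UMI of Mki67 or Top2a, and 10 had at least 10 UMIs over the cell cycle list, from 0 to 4 cells per library.

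The question between genotypes was whether α cells of islets with a β cell deletion differed from those of WT islets. Alpha cells made up 5.11, 5.00 and 7.33% of endocrine barcodes in WT and 6.25, 7.29 and 8.66% in KO, and the groups overlapped. The means were 5.81 ± 1.31% and 7.40 ± 1.21% (n = 3 per genotype; 2-sided exact permutation p = 0.3, where 0.1 is the smallest p that 3 against 3 allows). Between same-numbered libraries the KO share was higher in 3 of 3 pairs, by 1.14, 2.29 and 1.33 percentage points (2-sided exact sign-flip p = 0.25, the smallest that 3 pairs allow). The median UMI count per α cell was 20737 ± 4538 in WT and 15762 ± 2701 in KO (exact permutation p = 0.3), and it was lower in KO in 3 of 3 pairs (exact sign-flip p = 0.25). The Gcg share of all α UMIs was 22.0, 19.7 and 20.9% in WT and 22.9, 19.0 and 20.9% in KO, with overlap between the genotypes and a difference of 0.066 percentage points. Gcg chose the members, so this is a description.

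Ywhaz (chr15:36770770-36796929) was the gene targeted in β cells, and 14-3-3ζ binds phosphorylated partner proteins. UMIs come from the 3′ end of its mRNA, not from exon 4, so its level does not itself show the deletion. In α cells Ywhaz was at 140, 193 and 182 CPM in WT and 147, 192 and 166 CPM in KO on the non-hormone scale. The KO mean of 168 ± 22.6 CPM was 98.0% of the WT mean of 171 ± 27.8 CPM (exact permutation p = 0.9). In β cells the values were 244, 288 and 273 CPM in WT and 38.1, 61.9 and 37.8 CPM in KO, with no overlap and a KO mean at 17.1% of WT (exact permutation p = 0.1). In δ cells the KO mean was 98.4% of WT, and in Ppy cells 82.3% (exact permutation p = 0.9 and 0.3).

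Fitted on the sums of all genes with edgeR, Ywhaz in α cells differed by -0.03 on the log2 scale between KO and WT, with a 95% interval of -0.31 to 0.24 and an adjusted p of 1.00. The change in α cells was set against that in β cells in 1 limma-voom model over 12 sums, with the library as a random block. The difference was 2.51 on the log2 scale, with a 95% interval of 1.92 to 3.09 and an adjusted p of 0.00519. Ywhaz was the 1 gene called among 9453 in that model (0.0106%), and 264 had an unadjusted p under 0.05. Without WT library 2 the adjusted p was 0.121 and without WT library 3 it was 0.143, at differences of 2.53 and 2.54.

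The other 14-3-3 genes gave no call in α cells. Fitted log2 differences between KO and WT were 0.11 for Ywhab, 0.08 for Ywhae, -0.05 for Ywhag, 0.02 for Ywhah and 0.08 for Ywhaq. Ywhae, the member with the most UMIs, was at 427, 560 and 573 CPM in WT and 510, 564 and 577 CPM in KO on the non-hormone scale. Sfn was below the detection limit of the fit.

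**Figure D5:**
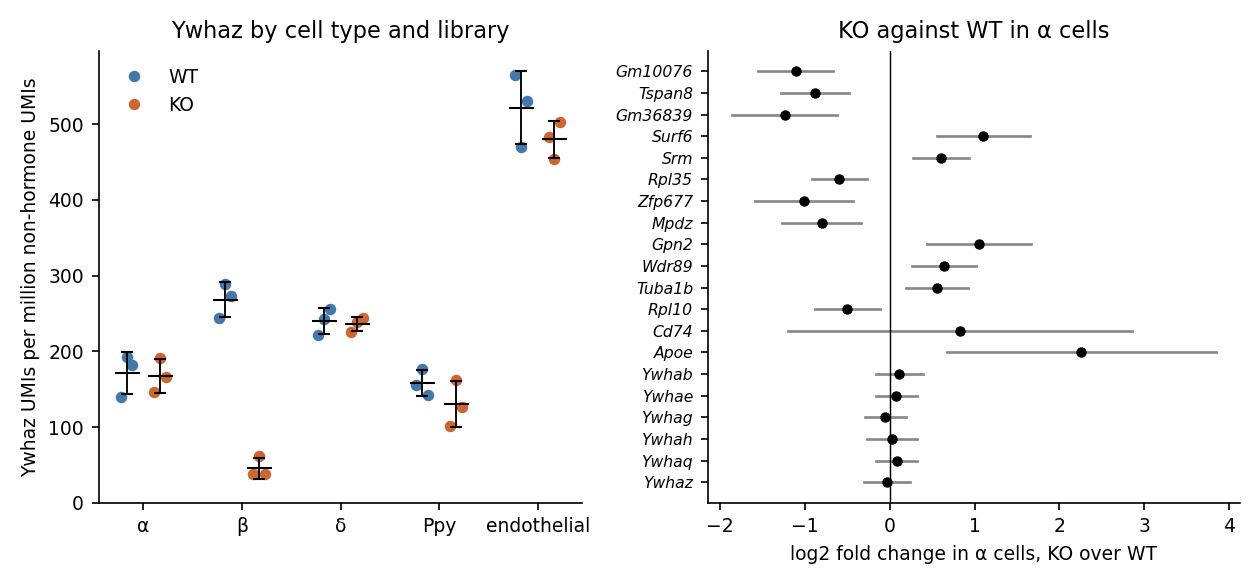
Left, Ywhaz in CPM on the non-hormone scale for WT and KO libraries in each cell type, with points for libraries and bars for mean ± SD; right, log2 fold change of KO over WT in α cells for named genes, with 95% intervals from edgeR. Ywhaz is at 17.1% of WT in KO β cells and at 98.0% in KO α cells.

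Across 8952 genes, no gene was called between KO and WT α cells (0%; edgeR quasi-likelihood test; a call needed an FDR under 0.05 and a log2 change of over 0.1 either way). Of these genes, 298 (3.33%) had an unadjusted p under 0.05, 129 higher (1.44%) and 169 lower (1.89%) in KO. DESeq2 called 1 gene, Gm10076, and had 72 at an unadjusted p under 0.05. All KO libraries lay above all WT libraries for 384 genes (4.29%) and below them for 422 (4.71%). The lowest adjusted p was 0.759.

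The sources used here do not say whether replicate numbers pair the libraries. In these same counts, same-numbered WT and KO libraries deviated together (r of 0.254, 0.275 and 0.108). With the number as a block edgeR called 6 genes (0.067%). Levels in this and the next paragraphs are CPM of all α UMIs after TMM scaling. Gm10076, a gene model whose reads may also fit copies of a ribosomal protein gene, was at 164, 326 and 224 CPM in WT and 106, 88.9 and 138 in KO, a block log2 difference of -1.1 with adjusted p = 0.00124. Every KO library was below every WT library. Tspan8 was at 64.5, 42.6 and 66.0 CPM in WT and 31.5, 25.1 and 36.8 in KO, again without overlap, with -0.87 and adjusted p = 0.00403. In the α cells with under 1% Ppy, Tspan8 was at 56.8, 30.5 and 62.8 CPM in WT and 19.5, 28.6 and 30.2 CPM in KO on the non-hormone scale. The ribosomal gene Rpl10, which has many copies, was at -0.52 with adjusted p = 0.0369, and the tubulin gene Tuba1b at 0.56 with adjusted p = 0.0331, and both had overlapping genotypes. Without both replicate 2 libraries, and so with 2 fewer libraries, the block log2 differences were -0.67 for Gm10076 and -0.92 for Tspan8 (adjusted p = 0.129 for both), and 0.57 for Tuba1b and -0.40 for Rpl10 (adjusted p = 0.737 for both).

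The other 2 of the 6 genes, Apoe and Cd74, are known from macrophages, and Cd74 from B cells too. Apoe, which carries lipids, was at 9.21, 120 and 8.19 CPM in WT and 34.9, 344 and 302 in KO, a block log2 difference of 2.53 with adjusted p = 0.000529. Its UMIs lay in few barcodes, since 16 of 739 α cells with at least 10 UMIs held 90.9% of the 2298 UMIs. Cd74, the invariant chain of MHC class II, was at 4.61, 247 and 16.9 CPM in WT and 3.37, 380 and 95.8 in KO, with 1.11 and adjusted p = 0.0369, and 39 cells held 94.4% of its UMIs. The 6 macrophage markers, all above 0 in α cells, summed to 60.5 to 693 CPM in WT and 37.2 to 762 CPM in KO on the non-hormone scale. The 6 B cell markers, likewise all above 0, summed to 21.5 to 497 and 9.48 to 978 CPM, and the replicate 2 libraries were highest for both lists. Without both replicate 2 libraries the block fit gave Apoe a log2 difference of 4.38 with adjusted p = 0.00406 and Cd74 2.24 with adjusted p = 0.0916. Without the 137 α cells that had at least 3 UMIs of other lineages, Apoe differed by 0.51 in the block fit with an adjusted p of 0.880. Cd74 was then too rare to test. Cd74 is on the macrophage and B cell lists, but its own UMIs were not counted for that limit. Gm10076 and Tspan8 stayed called in that fit at adjusted p of 0.00076 and 0.0396, whereas Tuba1b and Rpl10 did not, at 0.169 and 0.121. Under the 6 other member limits tried with the block, Tspan8 was called in each. Gm10076 was called in all but that with insulin under 5%, where its adjusted p was 0.0867 at a log2 difference of -1.1. Tuba1b and Rpl10 were called in 2 of the 6, at Gcg of at least 12% and at over 2000 genes. Apoe was not called at Gcg of at least 4% either (adjusted p = 0.852), and Cd74 was called in 2 of the 5 in which it was tested.

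The 10 genes with the lowest p without the block, none of them called, were Gm10076, Tspan8, Gm36839, Rpl35, Zfp677 and Mpdz, with lower values in KO, and Surf6, Srm, Gpn2 and Wdr89, with higher values in KO. Surf6, a nucleolar protein of ribosome assembly, was at 4.61, 6.44 and 7.23 CPM in WT and 13.5, 12.4 and 14.9 in KO (log2 difference 1.1, SE 0.26, unadjusted p = 0.000707, edgeR adjusted p = 1.00). Srm, the spermidine synthase gene, was at 23.8, 23.3 and 28.4 CPM in WT and 36.0, 39.3 and 39.6 in KO (0.60, SE 0.15, unadjusted p = 0.0013). Neither gene overlapped between the genotypes, which held for 9% of all genes tested. Mpdz, a scaffold protein with PDZ domains, was at 18.4, 16.8 and 15.4 CPM in WT and 9, 9.91 and 9.55 in KO (-0.81, SE 0.22).

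No listed group had a call without the block. The α cell markers and Pcsk2 were close to 0, with log2 differences between KO and WT of 0.003 for Gcg, -0.03 for Ttr, 0.16 for Irx1, -0.04 for Slc7a2 and -0.04 for Pcsk2. The smallest p among the markers was 0.357, for Irx1. Of 76 respiratory chain genes, 56 had a higher and 20 a lower mean in KO, where 4417 of all 8952 genes were higher and 4535 lower. Their median log2 difference was 0.04 in α cells by edgeR and 0.17 in β cells by the limma-voom model. All genes had medians of -0.003 and 0.005 by these fits. The fits differ, so their α and β medians are not like estimates. Sdhb, a subunit of succinate dehydrogenase, had the lowest p of the respiratory chain list, at 60.2 ± 9.64 CPM in WT and 75.7 ± 7.85 CPM in KO (unadjusted p = 0.0334). Of the 13 mitochondrially encoded genes, 11 had a lower mean in KO, with a median of -0.03. By the same unlike fits, endoplasmic reticulum genes had a median of 0.04 in α and -0.24 in β cells, and MHC class I genes -0.07 and 0.39. Kcnj11 was at 56.8, 56.5 and 48.7 CPM in WT and 75.4, 65.6 and 58.7 in KO, without overlap (0.30, unadjusted p = 0.0425, edgeR adjusted p = 1.00). The immediate early gene Klf6 was at 54.1 ± 6.73 CPM in WT and 41.4 ± 2.29 CPM in KO (-0.36, unadjusted p = 0.0181).

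Traces of other hormones in α cells also varied by library. They are given as descriptions, because the rule that chose the members limited them, Sst to under 2% and Ppy to under 8% of UMIs. Sst was at 1546, 518 and 1363 CPM in WT and 569, 822 and 639 CPM in KO, and WT library 2 lay below every KO library. Of the members, 14 had at least 1% Sst. Ppy was at 19017, 8459 and 10074 CPM in WT and 11799, 6381 and 7436 CPM in KO, with overlap between the genotypes and lower values in KO in 3 of 3 pairs. The share of α cells with at least 1% Ppy was likewise lower in KO in 3 of 3 pairs, and Pyy was at 29360, 17916 and 17716 CPM in WT and 18920, 16492 and 18009 CPM in KO, lower in 2 of 3 pairs. These moved with Tspan8, the other tested marker of Ppy cells, and their part in its difference was not tested. Insulin made up 1.2 to 3.85% of α UMIs per library, and 101 members had at least 5%.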

How the data were processed

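Droplet single-cell RNA-Seq (Chromium 3′) was available for 6 islet libraries, 3 WT and 3 β14-3-3ζ–KO. The deposited values are raw UMI counts per gene and barcode; per the submitters' processing notes the authors used Cell Ranger 6.0.2, Seurat and build mm10. Here, counts were summed over the α cells of each library (1365591 to 3168556 UMIs, which limits genes near 3 UMIs) and tested with edgeR 4.0.16 (quasi-likelihood, TMM, Benjamini-Hochberg) on genes with a UMI in over 15% of α cells of either genotype; rarer genes were not tested. The change in α against β cells was tested with limma-voom (limma 3.58.1; R 4.3.3), library as random block. Per-library values were compared by exact permutation and, as an addition after seeing the data, by exact sign flips of paired differences (scipy 1.17.1). KO β cells with residual Ywhaz were kept, unlike in the study's own processing. Wilson or exact 95% intervals and floors cover counting error only.

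Members and gene lists were chosen with earlier results of these data known. Other types were set by hormone shares: β, insulin at least 20% and Gcg, Sst and Ppy each under 2%; δ, Sst at least 2%, insulin under 10% and Gcg and Ppy under 8%; Ppy, Ppy at least 8% with α limits for the rest; endothelial, at least 3 UMIs of 6 markers and each hormone under 10%. No doublet caller was run; the hormone limits remove only barcodes mixed beyond them, and fits without barcodes over 2 times their library's median UMIs or with at least 3 UMIs of other lineages were added. Same-numbered WT and KO libraries had correlated deviations over genes (0.254, 0.275 and 0.108), so the numbers were used as pairs. Whether they mark a true pairing or a shared day is not given in the sources used here. No 2 libraries were copies.

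Named genes followed a rule: between genotypes, the 14-3-3 genes, up to 10 called per direction or, failing that, the 10 with the lowest p, and per list the 2 members with the highest level and the 1 with the lowest p; between types, the α markers and factors, the highest and lowest fold and the 3 highest levels per list, and the 15 genes with the highest ratio of the lowest α library to the highest other library. Other genes named (among them Sst, B2m, Tspan8 by Ppy level, Scg5, Chgb, Sstr3, Ffar1 and Gcgr) were chosen after their values were seen. Gene coordinates are from GENCODE vM21 (GRCm38), the promoter from RefSeq (GRCm38.p6). The fits were tested on simulated counts. Some listed genes are not reported here, although counts over lists include them. Alternatives were DESeq2 1.42.0, the replicate block, no filter, other limits, each library left out and δ in place of β cells.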

Additional observations from a re-analysis of the deposited data

Results flagged for a closer look

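The difference between KO and WT in Ywhaz was not the same in α cells and β cells by the test of the difference itself: 2.51 on the log2 scale (SE 0.27, limma-voom adjusted p = 0.00519), from -0.04 in α cells and -2.55 in β cells, with KO below WT in 3 of 3 libraries in β cells and overlapping values in α cells. Ywhaz was the gene deleted in β cells, and its level there carried the difference.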

How the results depend on the processing

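The number of genes called between genotypes in α cells, 0, became 6 with the replicate block, 1 with DESeq2 and 21 with no filter on low counts (19 higher, 2 lower in KO); leaving out each library gave 0 to 1 (Gm10076 without WT library 1, Sst, which the members' own limit bounds, without WT library 2). The higher genes without a filter included Mgp, Igfbp5, Rgs5, Flt1 and Sparc, with nearly all their UMIs in KO libraries 1 and 2, and 2 cells held 95% of the UMIs of Mgp. Settings added after seeing the data gave 1 gene (Sst) without both replicate 2 libraries and, with the block as well, 3; with the block they gave 4 at Gcg of at least 4%, 11 at Gcg of at least 12%, 4 at insulin under 5%, 5 at over 2000 genes, 5 without barcodes of high UMIs and 4 without barcodes of other lineages. With the replicate block Ywhaz in α cells (-0.03) was still not called, the difference in Ywhaz between α and β cells (2.51) was still called, and the α share and median UMIs had the same mean differences, each with an exact sign-flip p of 0.25. The Ywhaz difference in α cells, -0.03, was -0.136 to 0.041 with 1 library left out (above 0 without WT library 2, at 0.041, WT library 3 or KO library 1), 0.017 at insulin under 5% and 0.0022 without barcodes of high UMIs, never past the threshold. The Gcg share difference, 0.066 points, was -0.905 to 1.01 with 1 library left out and -0.327 at insulin under 5%. The difference in Ywhaz between α and β cells was 2.36 to 2.71 with 1 library left out and past the threshold in 4 of 6 such fits, which gave 0 to 1 genes called; against δ cells it was -0.034, with 0 genes called. On the scale of all UMIs, genes at least 2-fold above β cells rose from 518 to 972 and those below fell from 688 to 404, a share above of 70.6% in place of 43.0%. The α share of endocrine cells and median UMIs kept their direction in 13 of 13 alternatives each, but the α share difference, 1.58 points, was 0.955 without KO library 3 and 2.48 at over 2000 genes, and the median UMI difference, -4975, was -2833 without WT library 1. The cause of each change was not tested. WT library 1 had the fewest α cells, 52, and the lowest sum of α UMIs, although its median of 25021 UMIs per α cell was the highest.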
